A study of Mus musculus with 10 samples.

Results

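The long-chain acyl-CoA synthetases of the Acsl family, the fatty acid transport proteins (FATP, gene family Slc27a) and the related enzyme Acsf2 were described in white fat from the inguinal depot, which lies under the skin of the groin. The members are 10 genes chosen by symbol, Acsl1, Acsl3, Acsl4, Acsl5, Acsl6, Slc27a1, Slc27a2, Slc27a3, Slc27a4 and Acsf2, out of 40501 gene identifiers in the count table. They were proposed with the PexRAP-AKO against Control results in view, so their values in that comparison are given as a description and support nothing further. The labels give 5 Control male mice, which were Cre-negative, and 5 PexRAP-AKO male mice, which were Cre-positive and lack PexRAP in adipose tissue; all were chow-fed and, per the series title, on a C57/BL6J background. PexRAP is the product of Dhrs7b and reduces acyl- and alkyl-dihydroxyacetone phosphate on the peroxisomal route to ether lipids. The sources used here do not name the Cre driver. The labels state 8 weeks of chow feeding and also mice 8 weeks old, which leaves their age at collection unclear. Nothing in the labels says more of how the mice are related, and p-values measure the spread between these libraries.

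A free fatty acid has to be joined to coenzyme A before a cell can store it, build it into membranes or burn it. Acyl-CoA synthetases carry out that ATP-driven step, and FATP proteins couple it to fatty acid uptake or act on very long chains. In adipocytes most acyl-CoA goes to triglyceride, while the ether lipid pathway also starts from acyl-CoA and from fatty alcohol made from it. Among the members, ACSL1 is the main synthetase of adipocytes, ACSL3 sits on the endoplasmic reticulum and on forming lipid droplets, ACSL4 prefers arachidonic and other polyunsaturated acids, and ACSL6 is chiefly a brain enzyme.

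The libraries held 11274865 to 19881168 counts. Adipocyte markers were abundant in both groups: the 8 listed genes summed to 31111 to 41386 CPM (counts scaled to library size) in Control and to 29549 to 39107 CPM in PexRAP-AKO, with 0 of 8 undetected. Of these 8, 1 had a positive log2 fold change (median -0.11, lowest -0.47), against 49.8% of all genes tested. At an adjusted p under 0.05, edgeR and limma voom called 0 of them and DESeq2, with 415 genes called in all, called Cfd lower. The targeted gene followed the labels: Dhrs7b ran from 61.2 to 95.8 CPM in Control and from 17.9 to 22.8 CPM in PexRAP-AKO (log2 fold change -2.05, SE 0.12, edgeR adjusted p = 1.54e-05). The deleted exons are not named in the sources used here. In bulk tissue, fewer cells of a type and less RNA per cell cannot be told apart.

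The 1 member that rose was Acsl3. For that reason the 250 bases before its single RefSeq start are shown. Lpcat3, which remodels phospholipid acyl chains with acyl-CoA, is shown beside it because it was the only acyl-CoA-using enzyme of the pathway lists to pass the same test and was among the genes whose levels followed Acsl3 most closely. Capitals mark matches, on either strand, to CCAAT (the word bound by NF-Y), GGGCGG (the GC box bound by Sp1), CACGTG (the E-box), TCACNCCAC (the sterol response element-like word) and AGGTCA (the nuclear receptor half-site). The sequences are from RefSeq, build GRCm38.p6, all on the plus strand.
Acsl3, chr1:78657575-78657824: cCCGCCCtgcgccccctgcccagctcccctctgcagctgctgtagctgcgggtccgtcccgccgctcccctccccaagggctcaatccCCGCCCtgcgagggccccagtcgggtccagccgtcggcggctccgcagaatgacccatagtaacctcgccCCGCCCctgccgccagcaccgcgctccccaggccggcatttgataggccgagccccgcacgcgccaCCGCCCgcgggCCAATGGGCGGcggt
Lpcat3, chr6:124662854-124663103: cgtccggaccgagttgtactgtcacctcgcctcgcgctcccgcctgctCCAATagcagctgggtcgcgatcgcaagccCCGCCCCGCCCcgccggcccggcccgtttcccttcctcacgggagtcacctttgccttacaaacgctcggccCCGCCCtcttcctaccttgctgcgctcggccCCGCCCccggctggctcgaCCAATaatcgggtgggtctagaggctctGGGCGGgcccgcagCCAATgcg

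The Acsl3 window was 75.6% G and C and held 5 GC boxes and 1 CCAAT, which lay 15 to 11 bases before the start and directly abutted the last GC box. The Lpcat3 window was 70.0% G and C and held 5 GC boxes, of which the first pair share 1 base, and 3 CCAAT words. Over all 32851 windows of 250 bases in the RefSeq table, 32.7% held at least 1 GC box and 33.8% at least 1 CCAAT. The shares of windows with as many matches, or with as much G and C, were not computed. The E-box CACGTG stood in 6.02%, AGGTCA in 14.0% and TCACNCCAC in 1.05% of them, and none of these 3 words was in the windows of Acsl3 or Lpcat3. A match is a description of letters, not of binding. All 10 members had an entry in that table, with 1 start each except Acsl1 (2), Acsl6 (3) and Slc27a1 (3).

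In the Control depot, the family was dominated by a pair of genes. Per kilobase of exons, Acsl1 stood at 353 ± 41.8 CPM (SD, n = 5) and Slc27a1, the insulin-responsive FATP1 of fat and muscle, at 211 ± 48.9 CPM. Acsl1 was the higher of the pair in 5 of 5 Control libraries and their ranges did not overlap. All other members were far lower.

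Slc27a4, the FATP4 known from intestine and skin, stood at 12.5 ± 1.03 CPM per kilobase and Acsl5, a synthetase of mitochondria and endoplasmic reticulum, at 12.3 ± 0.828. Their ranges overlapped, and Slc27a4 was higher in 3 of 5 Control libraries. Acsf2, a mitochondrial synthetase that prefers medium chains, followed at 8.84 ± 1.16 CPM per kilobase and Acsl4 at 7.69 ± 0.549 (SD, n = 5). These neighbours also overlapped, with Acsf2 higher in 4 of 5.

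Acsl3 stood at 4.37 ± 0.243 CPM per kilobase in Control, below Acsl4 in 5 of 5 libraries without overlap. Slc27a2, the FATP2 of very long chains known from liver and kidney, was at 2.95 ± 2.68 and Slc27a3 at 2.58 ± 0.46 CPM per kilobase (SD, n = 5). Slc27a2 overlapped with both of its neighbours, because it ran from 0.642 to 7.37. Acsl6 was close to absent, with 2 to 6 counts in each Control library and 0 to 7 in each PexRAP-AKO library, which is 0.0232 and 0.0191 CPM per kilobase on average. It did not pass the filter on low counts and was not tested.

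**Figure D1:**
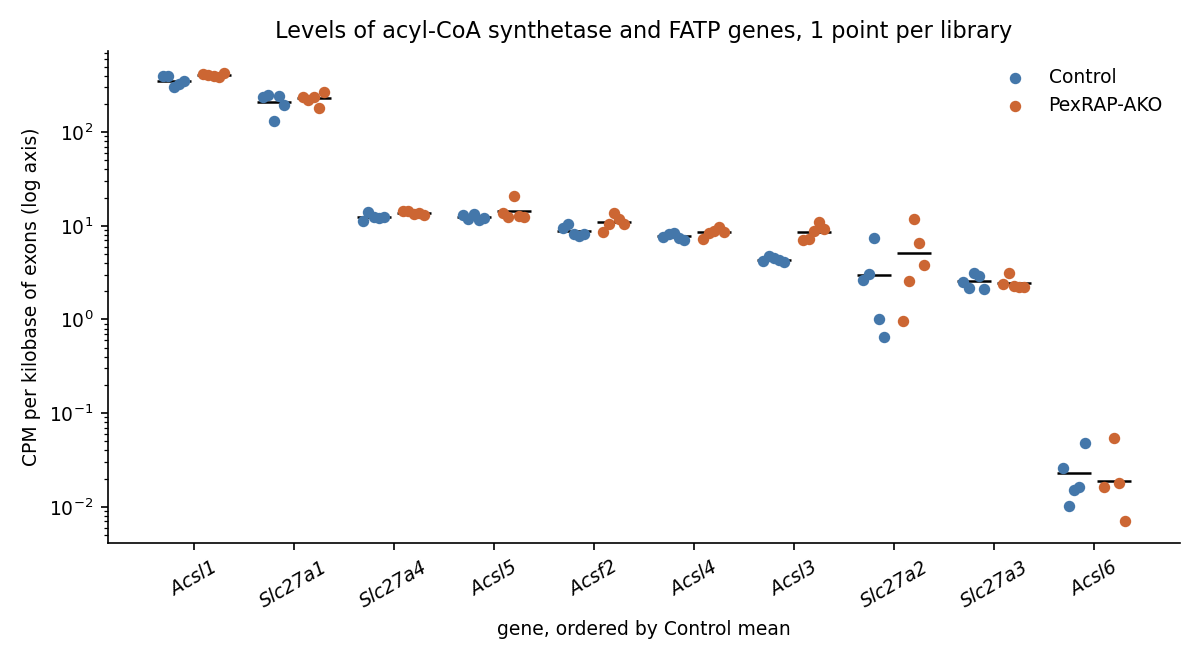
Levels of the 10 members in CPM per kilobase of exons on a log axis, 1 point per library, with Control in blue, PexRAP-AKO in orange and group means as black bars. Acsl1 and Slc27a1 stand above all other members in both groups, and Acsl6 is near 0; its 1 PexRAP-AKO library at 0 counts cannot be drawn on this axis.

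The lengths used above are the union of all annotated exons in GENCODE M21, which is 10483 bases for Acsl1 against 3897 bases for its longest principal transcript. With that shorter length, chosen after seeing the data, the Control level of Acsl1 was 951 CPM per kilobase and that of Slc27a1 441, so the distance from these to the rest grew. Within the Acsl family, Acsl1 made up 93.5% ± 0.932 of the summed read density in Control against 92.8% ± 1.11 in PexRAP-AKO (SD, n = 5 each). Within the Slc27a family, Slc27a1 made up 91.6% ± 3.63 in Control and 91.3% ± 1.97 in PexRAP-AKO. Both shares overlapped between the groups.

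Acsl3 (ENSMUSG00000032883, chromosome 1, 78657825 to 78707743, GRCm38) rose in PexRAP-AKO. Its level in Control replicates 2, 3, 5, 7 and 8 was 18.4, 20.5, 19.6, 18.6 and 17.9 CPM. In PexRAP-AKO replicates 1, 2, 3, 5 and 6 it was 30.9, 31.3, 38.4, 47.8 and 39.8 CPM. Every PexRAP-AKO library was thus above every Control library, replicate 5 being the highest and replicates 1 and 2 the lowest of their group. The counts behind these values were 216 to 564 per library.

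The fold was 1.97, a log2 fold change of 0.98 (SE 0.11, 95% interval 0.73 to 1.23, edgeR's quasi-likelihood F test, adjusted p = 0.00892 by Benjamini-Hochberg over 14913 genes, n = 5 each). Acsl3 was the only 1 of the 9 tested members past an adjusted p of 0.05, against 0.101% of all genes tested (0.0939% higher and 0.00671% lower). Nothing is read from that share, because the members were chosen with this comparison known. Its groups were also the only ones among the members that did not overlap, against 3.41% of all genes (2.08% higher and 1.33% lower). The call was lost without Control replicate 8 (log2 fold change 0.96, adjusted p = 0.0545) and without both Control replicate 8 and PexRAP-AKO replicate 6 (0.94, adjusted p = 0.104). In 22 alternatives the log2 fold change ran from 0.77 to 1.04.

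Part of the exons of Acsl3, 244 of 4357 bases, is shared with Utp14b, a gene on the same strand that encodes a nucleolar protein. Utp14b averaged 15.01 CPM in Control against 27.5 CPM in PexRAP-AKO (log2 fold change 0.87, SE 0.26, edgeR adjusted p = 0.185), and it was named after its values were seen. The sources used here do not say how reads in the shared bases were counted, and the part of such reads in the Acsl3 value was not tested.

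Acsl4 (chromosome X, 142317993 to 142390535) encodes an enzyme of the same subfamily as ACSL3, and the ratio of both genes within a library does not depend on how libraries are scaled. Acsl4 stood at 37.8 to 45.3 CPM in Control and at 38.9 to 52.5 CPM in PexRAP-AKO, with overlap (log2 fold change 0.15, SE 0.080, edgeR adjusted p = 0.416). That value was 0.092 without PexRAP-AKO replicate 5, 0.074 with scaling by total counts, 0.016 with the brown adipocyte score in the model and 0.0023 with the endothelial score. The ratio of Acsl3 to Acsl4 per kilobase was 0.538 to 0.589 in the 5 Control libraries, a mean of 0.568 ± 0.0205 (SD). In the 5 PexRAP-AKO libraries it was 0.862 to 1.13, a mean of 1.01 ± 0.100. The ratio was therefore tight in Control, wider in PexRAP-AKO and without overlap between them, and Acsl3 exceeded Acsl4 in 3 of 5 PexRAP-AKO libraries and in 0 of 5 Control libraries. Which gene is higher depends on the lengths used. In CPM, without a length, Acsl3 was below Acsl4 in every PexRAP-AKO library, for example at 47.8 against 52.5 CPM in replicate 5.

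**Figure D2:**
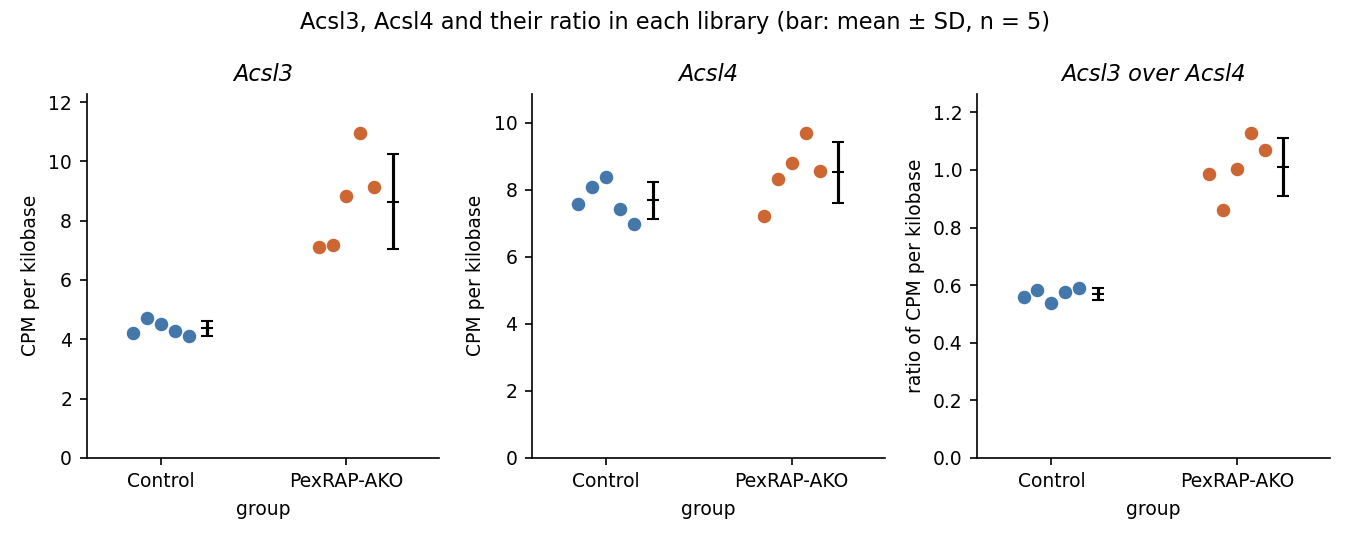
Acsl3, Acsl4 and the ratio of Acsl3 to Acsl4 in CPM per kilobase, 1 point per library in each group, with the mean and SD (n = 5) beside the points. Acsl4 overlaps between the groups, whereas the Acsl3 to Acsl4 ratio is at most 0.589 in Control and at least 0.862 in PexRAP-AKO.

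As a share of the Acsl read density, Acsl3 took between 1.004% and 1.38% in each Control library and between 1.59% and 2.62% in each PexRAP-AKO library. The difference of means was 0.808 percentage points on this scale. It was smaller, at 0.348 points, with the longest principal transcript as the length, since Acsl1 then weighs more. On both scales Acsl3 stayed a small part of a family led by Acsl1.

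Several marker lists of other cell types had fold changes of a single sign. All 8 brown adipocyte markers had a positive log2 fold change (median 0.89, 0 past the threshold and 2 at an unadjusted p under 0.05 in edgeR), with a summed level of 229 to 2111 CPM in Control and 507 to 2777 CPM in PexRAP-AKO and none at 0. All 6 endothelial markers had a negative one (median -0.27, 0 past the threshold and 3 at an unadjusted p under 0.05), at 682 to 859 CPM in Control and 485 to 691 CPM in PexRAP-AKO. All 8 skeletal muscle markers were also negative (median -2.65, 0 past the threshold and 6 at an unadjusted p under 0.05), at 12.0 to 1280 CPM in Control and 8.00 to 106 CPM in PexRAP-AKO. All 6 macrophage markers were positive (median 0.17, 0 past the threshold and 0 at an unadjusted p under 0.05). They summed to 675 to 1435 CPM in Control and 582 to 1744 CPM in PexRAP-AKO. Over all genes tested, 49.8% had a positive log2 fold change and 15.5% an unadjusted p under 0.05 in edgeR. With the mean log2 CPM of the brown adipocyte markers in the model, the Acsl3 log2 fold change was 0.85 (edgeR adjusted p = 0.0344), and with that of the skeletal muscle markers it was 0.98 (adjusted p = 0.0307). With the endothelial score, an alternative chosen after seeing the data, it was 0.77 and did not pass (adjusted p = 0.135), in a fit that called 2 genes in all. DESeq2 and limma voom called 0 genes of the brown adipocyte, endothelial, skeletal muscle and macrophage lists. Of the 8 skeletal muscle markers, 0 had an unadjusted p under 0.05 in limma voom and 7 in DESeq2, so that count depends on the tool.

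Lymphoid markers were highest in 1 library of each group, Control replicate 8 and PexRAP-AKO replicate 6. The 8 T and B lymphocyte genes summed to 39.4 and 105 CPM there, and to as little as 5.99 CPM in the other Control and 5.98 CPM in the other PexRAP-AKO libraries (7 of 7 tested positive, median 1.35, 0 past the threshold and 1 at an unadjusted p under 0.05 in edgeR). The losses of the Acsl3 call given above concern these libraries: its adjusted p was 0.0545 without Control replicate 8, 0.104 without both and 0.0230 without PexRAP-AKO replicate 6 alone (edgeR). The log2 fold change in these fits was 0.96, 0.94 and 0.96. Both libraries also stood out in other marker scores. Control replicate 8 had the highest skeletal muscle score (6.96) and endothelial score (7.01) of the 10 libraries and the lowest brown adipocyte score (3.36). PexRAP-AKO replicate 6 had the highest score of mammary and skin epithelium markers (1.72), with Krt18 at 16.8 CPM and Epcam at 8.48 CPM. Which of these traits goes with the lost call was not tested.

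The 8 other tested members did not pass, with adjusted p of 0.257 to 0.862 in edgeR, and neither DESeq2 nor limma voom called any of them. Over the 9 tested members the median log2 fold change was 0.21, against -0.00065 over all genes tested, and 8 of 9 were positive, against 49.8% of all genes. At an unadjusted p under 0.05 there were 3 of 9 members, Acsl3, Acsf2 and Slc27a4, against 15.5% of all genes. These counts describe genes picked with the comparison known.

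Acsl1 (chromosome 8, 46471037 to 46536051) was at 4143, 4121, 3139, 3419 and 3701 CPM in Control replicates 2, 3, 5, 7 and 8. In PexRAP-AKO replicates 1, 2, 3, 5 and 6 it was at 4387, 4277, 4202, 4040 and 4462 CPM. The PexRAP-AKO libraries lay close together, 4 of 5 above the highest Control library, and replicate 5 fell within the Control range. The log2 fold change was 0.21 (SE 0.10, 95% interval -0.017 to 0.43, edgeR adjusted p = 0.359). Gm45244, a gene model on the opposite strand, shares 9.91% of the Acsl1 exon bases.

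Acsl5 (chromosome 19, 55251938 to 55297720) was at 56.3 to 65.7 CPM in Control. PexRAP-AKO replicates 1, 2, 5 and 6 lay at 66.0, 60.9, 62.3 and 59.9 CPM, and replicate 3 alone stood at 101 CPM. The log2 fold change of 0.22 (SE 0.14, edgeR adjusted p = 0.471) was 0.051 without that library. PexRAP-AKO replicate 3 also had the highest macrophage score of the 10 libraries (7.80). Acsl5 correlated with that score at r = 0.73 and rho = 0.50, and the part of macrophage content in its level was not tested. Zdhhc6, a palmitoyltransferase gene on the opposite strand, shares 8.31% of the Acsl5 exon bases, and it averaged 28.1 CPM in Control against 29.2 CPM in PexRAP-AKO. Zdhhc6 was named after its values were seen.

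Acsf2 (chromosome 11, 94557102 to 94601871) was at 32.7, 36.3, 27.8, 27.0 and 28.0 CPM in Control replicates 2, 3, 5, 7 and 8. It was at 29.3, 36.0, 47.0, 40.7 and 35.8 CPM in PexRAP-AKO replicates 1, 2, 3, 5 and 6. PexRAP-AKO replicates 3 and 5 were above all Control libraries and the rest overlapped (log2 fold change 0.31, SE 0.12, 95% interval 0.042 to 0.58, edgeR adjusted p = 0.257). With the brown adipocyte score in the model the log2 fold change of Acsf2 was 0.15, and with the endothelial score it was 0.023.

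**Figure D3:**
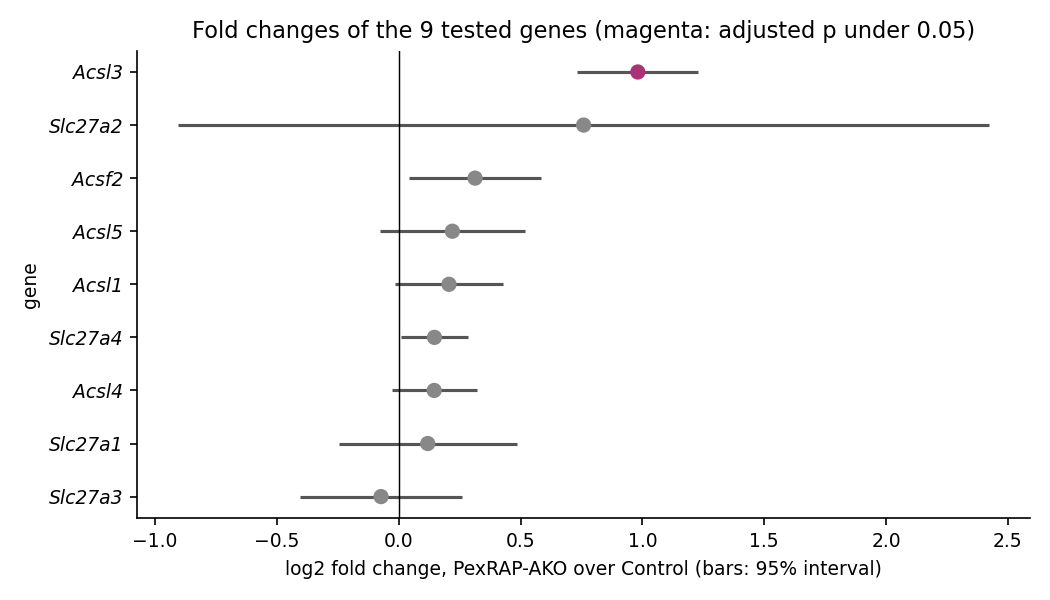
Log2 fold change of PexRAP-AKO over Control for the 9 tested members from edgeR's quasi-likelihood fit, with 95% intervals that are not adjusted for the number of genes. Acsl3 at 0.98 is the only gene past an adjusted p of 0.05, and the interval of Slc27a2 is the widest, from -0.91 to 2.42.

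Among the FATP genes, Slc27a1 (chromosome 8, 71568882 to 71587302) was at 1382, 1454, 774, 1418 and 1133 CPM in Control replicates 2, 3, 5, 7 and 8. In PexRAP-AKO replicates 1, 2, 3, 5 and 6 it was at 1393, 1290, 1380, 1063 and 1563 CPM. The groups overlapped over most of their range, and the lowest value belonged to Control replicate 5. Its log2 fold change was 0.12 (SE 0.17, 95% interval -0.25 to 0.48, edgeR adjusted p = 0.781) and -0.010 without Control replicate 5.

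Slc27a4 (chromosome 2, 29802634 to 29817522) had the narrowest interval of the members that did not pass. It ran from 49.2 to 61.8 CPM in Control and from 57.9 to 64.1 CPM in PexRAP-AKO (log2 fold change 0.15, SE 0.064, 95% interval 0.0077 to 0.29, edgeR adjusted p = 0.302). Without Control replicate 3, the highest of its group, its groups no longer overlapped. The share of all genes that separate when that library is left out was not computed. Slc27a3 (chromosome 3, 90385239 to 90389938), a FATP of less settled function, was the only member with a negative fold change. It stood at 5.46 to 8.09 CPM in Control and 5.66 to 8.13 CPM in PexRAP-AKO, with 63 to 161 counts per library (log2 fold change -0.073, SE 0.15, edgeR adjusted p = 0.862).

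Slc27a2 (chromosome 2, 126552407 to 126588243) varied more between libraries than any other tested member. Control replicates 2, 3, 5, 7 and 8 held 9.87, 11.6, 27.7, 3.82 and 2.41 CPM. PexRAP-AKO replicates 1, 2, 3, 5 and 6 held 3.64, 9.69, 44.1, 24.5 and 14.4 CPM. High and low libraries thus occurred in both groups, and the SD was 90.9% of the mean in Control and 82.1% in PexRAP-AKO, against 5.57% and 18.5% for Acsl3. The log2 fold change of 0.76 (SE 0.74, edgeR adjusted p = 0.670) turned to -0.53 with the brown adipocyte score in the model and to -1.13 with the endothelial score. With 1 library left out it ran from 0.19, without PexRAP-AKO replicate 3, to 1.44, without Control replicate 5. A lincRNA gene on the opposite strand, Gm26697, shares 11.2% of the Slc27a2 exon bases but held only 12 counts over all libraries.

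The spread of Slc27a2 followed the brown adipocyte markers across the 10 libraries. Ucp1, the uncoupling protein of brown and beige fat and 1 of the 8 markers, ran from 28.6 to 1159 CPM in Control and from 94.1 to 1603 CPM in PexRAP-AKO. In log2 CPM, Slc27a2 correlated with the mean of the 8 markers at r = 0.95 (permutation p = 8.00e-05) and rho = 0.88 (permutation p = 0.00183). Adjusted over the 9 members examined these were 0.00045 and 0.00823. Without Control replicates 7 and 8, the farthest from the median score, r was 0.92 in 8 libraries. For deviations from the group means it was 0.96, so libraries of the same group followed the score too.

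Acsl4 followed the same score, with r = 0.92 (permutation p = 0.0001, adjusted 0.00045), rho = 0.95 (permutation p = 8.00e-05, adjusted 0.00072), r = 0.93 without those 2 libraries and r = 0.89 for deviations from the group means. Its range was far narrower, from 37.8 to 52.5 CPM over all 10 libraries against 2.41 to 44.1 CPM for Slc27a2. Acsf2 had r = 0.75 (permutation p = 0.0132, adjusted 0.0395) and rho = 0.67 (permutation p = 0.0385, adjusted 0.0866), with r = 0.60 without the 2 libraries and r = 0.63 for deviations from the group means.

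Acsl3 had r = 0.66 (permutation p = 0.0429, adjusted 0.0966) and rho = 0.76 (permutation p = 0.0155, adjusted 0.0465), with r = 0.47 without them and r = 0.58 for deviations from the group means. Its Control values ranged only from 17.9 to 20.5 CPM. The remaining 5 tested members, Acsl1, Acsl5, Slc27a1, Slc27a3 and Slc27a4, had r from -0.24 to 0.50 with adjusted p of 0.240 to 0.887. All tests were two-sided, with 100000 resamples and 10 libraries. The resamples mixed Control and PexRAP-AKO libraries, so these p-values also reflect any difference between the groups. No p is given for the deviations from the group means. The share of all genes that follow the score as closely was not computed. The brown adipocyte score was not the only score that members followed. With the endothelial score, Acsf2 had r = -0.87 and rho = -0.83, and Acsl3 had r = -0.79 and rho = -0.93. With the score of the 8 white and general adipocyte markers, Slc27a2 had r = -0.88 and Acsl4 r = -0.85. These scores were not separated from each other, and the part of brown adipocyte content in these levels was not tested.

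**Figure D4:**
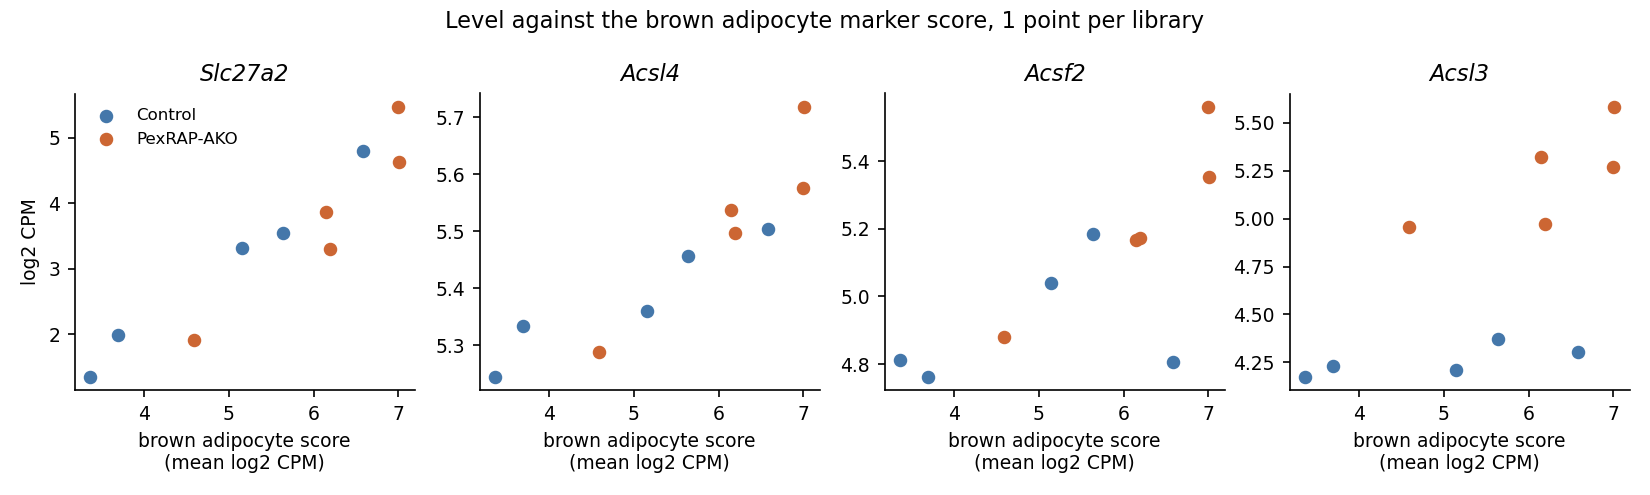
Log2 CPM of Slc27a2, Acsl4, Acsf2 and Acsl3 against the mean log2 CPM of 8 brown adipocyte markers, 1 point per library, with Control in blue and PexRAP-AKO in orange. Slc27a2 and Acsl4 climb with the score in both groups, and the Control values of Acsl3 lie below every PexRAP-AKO value.

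The genes whose log2 CPM was most like that of Acsl3 over the 10 libraries were Mal2, Lpcat3, Insig1, Gss and Spata5, with Pearson r of 0.96, 0.95, 0.95, 0.94 and 0.94 and Spearman rho of 0.90, 0.88, 0.95, 0.96 and 0.89. They were picked as the highest of all genes tested, so no p is given, and all 10 libraries include the group difference of Acsl3 itself. For deviations from the group means, r was 0.66, 0.56, 0.57, 0.86 and 0.63. Insig1, which holds the SREBP precursor in the endoplasmic reticulum when sterols are plentiful, Lpcat3 and Mal2, a membrane protein of vesicle transport, passed the test (edgeR adjusted p = 0.0173, 0.00892 and 0.0345). Of 22 alternatives, Lpcat3 passed in 18, Insig1 in 12 and Mal2 in 8, with adjusted p of up to 0.135, 0.260 and 0.550. Insig1 did not pass when PexRAP-AKO replicate 2 or 5 or Control replicate 2, 5, 7 or 8 was left out, nor did Mal2 when PexRAP-AKO replicate 2, 3, 5 or 6 or Control replicate 2, 5, 7 or 8 was left out. Both also failed in edgeR with the brown adipocyte score (adjusted p = 0.118 for Insig1 and 0.215 for Mal2). The same held with the endothelial score (0.260 and 0.550) and with a block for replicate number (0.194 and 0.280). Mal2 failed too with the skeletal muscle score (0.101) and with scaling by total counts (0.0663). Gss, glutathione synthetase, averaged 24.3 ± 1.77 CPM in Control against 38.9 ± 8.29 in PexRAP-AKO, and Spata5 17.5 ± 0.497 against 21.6 ± 1.57 CPM (SD, n = 5 each). Neither passed (edgeR adjusted p = 0.0846 and 0.107), whereas both did in DESeq2 (adjusted p = 0.000668 and 0.0159), and Gss passed in edgeR without PexRAP-AKO replicate 1 (0.0193). DESeq2 called 415 genes in all, against 15 in edgeR and 19 in limma voom.

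Other enzymes that make acyl-CoA were examined as a list of 15, of which 9 were tested and 0 passed in edgeR. Their median log2 fold change was 0.19, and 7 of 9 were positive, against 49.8% of all genes. At an unadjusted p under 0.05 in edgeR there were 2 of 9, against 15.5% of all genes. These were Aacs, the cytosolic acetoacetyl-CoA synthetase, and Acss2, which makes cytosolic acetyl-CoA from acetate. Aacs averaged 322 ± 67.9 CPM in Control against 561 ± 94.3 in PexRAP-AKO (SD, n = 5 each, edgeR adjusted p = 0.0737). Acss2 averaged 142 ± 64.9 CPM in Control against 439 ± 152 in PexRAP-AKO (log2 fold change 1.63, SE 0.35, edgeR adjusted p = 0.107). In both genes Control replicate 3 lay above PexRAP-AKO replicate 1, and the other libraries did not overlap. DESeq2 called both (adjusted p = 6.99e-05 for Aacs and 0.00167 for Acss2), limma voom called neither, and in edgeR Aacs passed without PexRAP-AKO replicate 1 (0.0386) or without Control replicate 3 (0.0181). These DESeq2 calls were among 415 genes it called in all, against 15 in edgeR.

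Enzymes that draw on acyl-CoA for lipid synthesis held the 1 call of the pathway lists in edgeR. Of 10 lysophospholipid and sterol acyltransferases tested, 1 passed, Lpcat3, which was at 70.8 to 92.8 CPM in Control and 113 to 169 CPM in PexRAP-AKO (log2 fold change 0.93, SE 0.11, edgeR adjusted p = 0.00892). DESeq2 and limma voom called it too. In edgeR, however, Lpcat3 did not pass without Control replicate 8 (0.0545) or without that library and PexRAP-AKO replicate 6 (0.104). Nor did it pass with a block for replicate number (0.0611) or with the endothelial score in the model (0.135). The median of the list was -0.023, and Mboat2, another lysophospholipid acyltransferase, stood at -0.64 (SE 0.22, edgeR adjusted p = 0.213). Of 11 glycerolipid acyltransferases tested, 0 passed in edgeR or limma voom, with a median of 0.12. Of these 11, 3 had an unadjusted p under 0.05 in edgeR, against 15.5% of all genes. Agpat2, which makes phosphatidic acid, was at 819 to 1358 CPM in Control and 1432 to 2226 CPM in PexRAP-AKO without overlap (log2 fold change 0.95, SE 0.17, edgeR adjusted p = 0.0657). Agpat3 had a log2 fold change of 0.27 (SE 0.080, edgeR adjusted p = 0.175). DESeq2 called both (adjusted p = 5.78e-06 for Agpat2 and 0.0293 for Agpat3), and in edgeR Agpat2 passed without PexRAP-AKO replicate 1 (0.0254) or Control replicate 3 (0.0218). Over all genes, DESeq2 called 415 and edgeR 15.

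The routes that oxidise, bind or release acyl-CoA held no call in edgeR or limma voom. Of 9 genes for carnitine entry and acyl-CoA dehydrogenation, 0 passed in edgeR, 9 were positive and 6 had an unadjusted p under 0.05, with a median log2 fold change of 0.33. Over all genes tested, 49.8% were positive and 15.5% had an unadjusted p under 0.05 in edgeR. The same shares stand beside the thioesterase counts below. Cpt2, the inner mitochondrial carnitine palmitoyltransferase, averaged 215 ± 25.7 CPM in Control against 269 ± 20.1 in PexRAP-AKO (edgeR adjusted p = 0.160), and Slc25a20, the carnitine-acylcarnitine carrier, had a log2 fold change of 0.51 (SE 0.15, adjusted p = 0.175). DESeq2 called these 2 of the 9 (adjusted p = 0.0264 and 0.0308), among the 415 genes it called in all, against 15 in edgeR. With the brown adipocyte score in the edgeR model, the log2 fold change of Cpt2 moved from 0.33 to 0.19. That of Slc25a20 moved from 0.51 to 0.25. Of 10 acyl-CoA thioesterases tested, 0 passed in edgeR, DESeq2 or limma voom, 10 were positive and 4 had an unadjusted p under 0.05 in edgeR, with a median of 0.24. Among them Acot2, a mitochondrial enzyme, had a log2 fold change of 0.26 (edgeR adjusted p = 0.229), and Acot1, at 0.92 (adjusted p = 0.185), has near-identical paralogs that can share its few reads.

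Of 5 acyl-CoA binding proteins tested, 0 passed in any of the 3 tools. At an unadjusted p under 0.05 in edgeR there was 1, against 15.5% of all genes. That was Dbi, the main acyl-CoA carrier of the cytosol, with a mean of 1186 ± 62.5 CPM in Control against 1504 ± 263 in PexRAP-AKO (SD, n = 5 each, edgeR adjusted p = 0.213). Acbd6 had a log2 fold change of 0.15 (edgeR adjusted p = 0.416). Of 7 genes of fatty acid uptake and binding, 0 passed in edgeR or limma voom and 1 had an unadjusted p under 0.05 in edgeR, with a median of 0.042. That was Fabp5, with a log2 fold change of 0.78 (SE 0.22, edgeR adjusted p = 0.175), which DESeq2 called (0.0132) among 415 genes in all. Fabp3, at 0.97 (SE 0.95, adjusted p = 0.670), turned to -0.43 with the brown adipocyte score in the model and to -0.75 with the endothelial score, and ran from 0.56 without PexRAP-AKO replicate 3 to 2.05 without Control replicate 5.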

How the data were processed

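RNA-seq was done on inguinal white fat of 10 male mice, 1 library per labelled sample. The deposited table gives whole-number counts for each gene without scaling. STAR 2.0.4b, featureCounts of Subread and edgeR were named in the submitters' processing notes. The sources used here give no build, annotation or strand setting, so genes that overlap on opposite strands may share reads. Columns were matched to samples by genotype and number. Of 40724 rows, 1 per identifier was kept (40501). Coordinates and lengths came from GENCODE M21 (GRCm38), which held 99.6% of the identifiers.

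TMM scaling was done in edgeR 4.0.16 under R 4.3.3. filterByExpr (minimum count 10, minimum total 15) left 14913 genes, among them 9 of 10 members. Groups were compared with the quasi-likelihood F test of edgeR (robust, no covariate) and Benjamini-Hochberg adjustment over all genes, with a threshold of 0.05. Log2 CPM used a prior count of 2. A marker score is the mean log2 CPM of a list.

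The members, lists, markers and alternatives were chosen with earlier results of these data known. Named genes were the members, Dhrs7b, up to 2 genes per pathway list by p and the 5 genes most correlated with Acsl3; others are said to be named after their values were seen. Alternatives were other scalings and filters, DESeq2 1.42.0, limma 3.58.1 voom, a marker score in the model, a block for replicate number and leaving out libraries. No library was a repeat of another of its group (lowest chi-square per degree of freedom 7.73). Pairs across the groups were not compared.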

Additional observations from a re-analysis of the deposited data

Results flagged for a closer look

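In 3 of 56 groups of 5 libraries, 1 library lay far from the other 4 in log2 CPM, and chance alone flags about 1 in 20 groups, or 2.8 here. PexRAP-AKO replicate 3 was high for Acsl5 (6.66). PexRAP-AKO replicate 2 was high for Slc27a3 (3.05). PexRAP-AKO replicate 1 was low for Agpat2 (10.48), whose log2 fold change without it was 1.04 (edgeR adjusted p = 0.0254).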

How the results depend on the processing

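Of 198 values of the 9 tested members under 22 alternatives, 188 kept their direction and side of the threshold, 4 lost a call and 6 changed sign. Acsl3 lost its call with the replicate block (log2 fold change 0.98, adjusted p = 0.119, 6 libraries), with the endothelial score, without Control replicate 8 and without both libraries high in lymphoid transcripts. Members past the threshold were then 0 of 9, and 0 to 1 over libraries left out singly. The block used numbers 2, 3 and 5, whose deviations correlated at -0.02, -0.08 and 0.36, which does not make them pairs; it called 3 genes. Of all genes, 15 passed in the main test, 26 without a low-count filter, 415 with DESeq2, 7 with the brown adipocyte, 6 with the skeletal muscle and 2 with the endothelial score, 5 without both libraries, and 3 (without Control replicate 8) to 58 (without PexRAP-AKO replicate 1) with 1 library left out; the cause was not tested. Signs turned for Slc27a2 and Fabp3 with the brown score (-0.53 and -0.43) and the endothelial score (-1.13 and -0.75), for Acsl5 (-0.078) and Slc27a3 (0.011) with the endothelial score, and for Slc27a1 (-0.010) and Slc27a3 (0.013) without Control replicate 5; with 1 library left out these ran from -0.010 to 0.19 and from -0.18 to 0.013. Members whose groups did not overlap were 1 to 2, Acsl1 joining without PexRAP-AKO replicate 5 and Slc27a4 without Control replicate 3. With all 10 libraries, 3.41% of all genes tested did not overlap. That share was not computed with 1 library left out, where fewer values have to separate, so nothing is read from these 2 members. The Acsl3 share difference of 0.808 points was 0.352 with raw counts and 0.348 with the longest principal transcript, since the length of Acsl1 sets its weight, and 0.646 to 0.904 with 1 library left out. The endothelial score and that length were chosen after seeing the data.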
